A study of Mus musculus with 5 samples.

Results

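Epithelial cells are held together by tight junctions, adherens junctions and desmosomes, and the genes encoding these structures were followed in prostate tumors of castrated and intact mice. The 51 genes were rows of the count table whose symbols are claudins (Cldn and a number), desmogleins (Dsg), desmocollins (Dsc) or zonula occludens proteins (Tjp), together with 16 named partners, out of 24527 genes in the table. They comprised 23 claudins, 8 other tight junction genes, 5 adherens junction genes, 9 desmosomal cadherins, 5 desmosomal plaque genes and Epcam. Bulk RNA-seq had been carried out on prostate tissue of separate TripleTg animals, 3 castrated and 2 intact, and the comparison asks how androgen deprivation changes these tumors. All mice of both groups carried a human HGF transgene that is expressed ubiquitously, a human MET transgene, a β-catenin allele whose exon 3, which encodes the phosphorylation sites that mark the protein for degradation, can be deleted, and PB-Cre4. PB-Cre4 is a Cre recombinase under the probasin promoter, which drives it in prostate epithelium, so MET and stabilized β-catenin are switched on in those cells, and in both groups. Castration was at 4 months and analysis at 8 months of age, on a background mixed from C57BL/6 and C3H SCID. The castrated libraries (replicates 1, 2 and 3) held 28015507, 18951782 and 20492061 counts, and the intact libraries (replicates 1 and 2) 21560355 and 22853501 counts. Junction genes took 0.844%, 0.574% and 0.614% of the counts in castrated tumors, and 0.871% and 0.637% in intact tumors.

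In epithelium, claudins and the MARVEL proteins occludin, Marveld2 and Marveld3 form the tight junction strands that seal the space between cells, and Tjp proteins and cingulin tie these strands to actin. In adherens junctions, E-cadherin binds its partner on the next cell and holds p120 catenin, β-catenin or plakoglobin and α-catenin inside the cell. In desmosomes, desmogleins and desmocollins bind plakoglobin and plakophilins, which desmoplakin links to keratin filaments. β-catenin is also the transcriptional arm of Wnt signaling.

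The 2 intact tumors differed from each other in these genes. Over the 40 junction genes that passed the filter on low counts (more than 1 CPM, which is counts scaled to library size, in at least 2 samples), the Pearson correlation of log2 CPM was 0.671 between the intact tumors and 0.862 to 0.936 among the castrated tumors. With the castrated tumors, intact replicate 1 correlated at 0.877 to 0.936 and intact replicate 2 at 0.677 to 0.762. Over all genes tested, the correlation was 0.848 between the intact tumors, 0.885 to 0.937 among the castrated tumors, and 0.826 to 0.922 (intact replicate 1) and 0.819 to 0.867 (intact replicate 2) between the groups. These are correlations across genes, which are not independent replicates. Of the 40 genes, 7 were at least 4-fold higher in intact replicate 2 than in intact replicate 1 (5.39% of all 14612 genes tested), and 2 were at least 4-fold lower (6.35% of all genes tested). Markers of prostate secretion stood apart in the same tumor. The summed CPM of 10 such genes was 23.2, 6.76 and 6.28 in castrated tumors, 5.24 in intact replicate 1 and 2167 in intact replicate 2. The most abundant of them by TPM, the transglutaminase gene Tgm4, had 12, 1, 1 and 5 counts in the first 4 tumors and 28976 in intact replicate 2. Msmb, another marker of prostate secretion, was at 0 in every sample, while probasin (Pbsn) had 0 to 13 counts in the other 4 tumors and 112 in intact replicate 2. Markers of luminal epithelium (Krt8, Krt18 and 7 others) were present in all 5 tumors, with a summed CPM of 3754, 3176 and 3805 in castrated and 4603 and 3424 in intact tumors. Most results for single genes are therefore given with their values in both intact tumors.

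**Figure D1:**
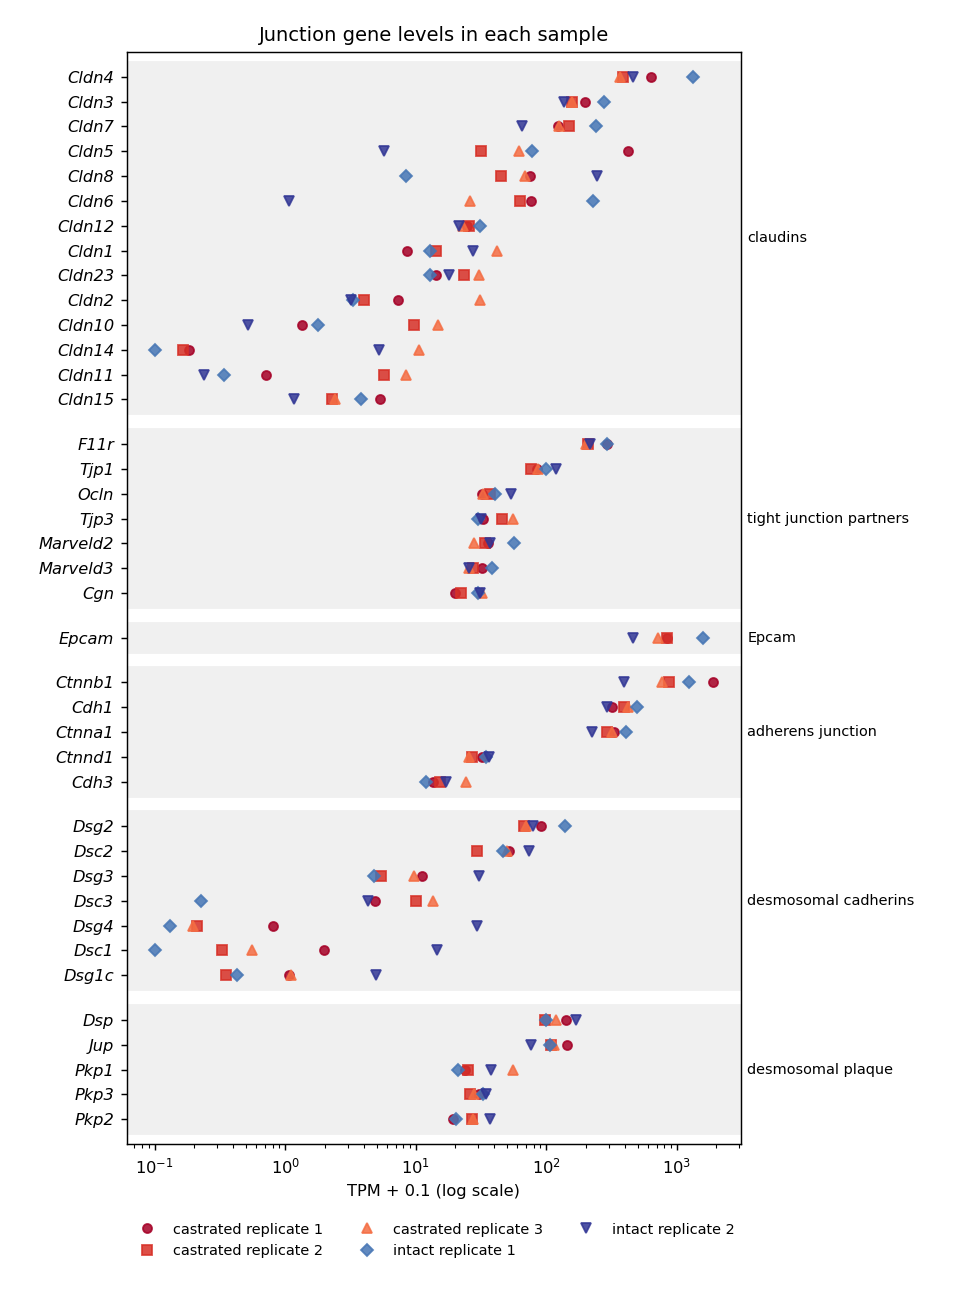
Level of junction genes that were tested, in TPM (counts scaled to gene length and library size) plus 0.1 on a log scale, with one symbol per tumor (red and orange for castrated, blue for intact). Most genes of the tight junction partners, adherens junction and desmosomal plaque lie within a narrow range, while Cldn5, Cldn6, Cldn8, Cldn14, Dsg4 and Dsc1 are spread over orders of magnitude, with intact replicate 2 at one end for Cldn5, Cldn6, Cldn8, Dsg4 and Dsc1.

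No junction gene passed the threshold between castrated and intact tumors. The call needed an adjusted p under 0.05 (edgeR quasi-likelihood F-test, Benjamini-Hochberg over all genes tested) and more than a 2-fold difference either way. It was met by 0 of 40 junction genes and by 0 of 14612 genes (0%), and the lowest adjusted p among junction genes was 0.296, for Cldn11. The study itself reported genes differentially expressed between castrated and intact samples, and its list was not compared with these calls. At an unadjusted p under 0.05 there were 3 junction genes, where 15% of all genes tested passed. Cldn11 was higher in castrated tumors (8.74% of all genes tested), and Marveld2 and Dsg4 were lower (6.28% of all genes tested). The mean was lower in castrated tumors for 27 of the 40 genes and higher for 13, where 52.1% of all genes tested were lower. The median log2 fold change was -0.30 for junction genes and -0.03 for all genes tested. Single directions depended on which intact tumor was kept. Without intact replicate 2, the log2 fold change turned to 0.79 for Cldn1, 0.29 for Dsp, 0.32 for Pkp2 and -0.04 for Ctnnb1. Without intact replicate 1 it turned to 0.07 for Cdh1, 0.69 for Cldn7, 0.17 for Ctnna1, 0.48 for Epcam and -0.26 for Cdh3. The 3 castrated tumors lay below both intact tumors for 9 junction genes (16.1% of all genes tested) and above both for 3 (17.0% of all genes tested). By role, the median log2 fold change was 0.01 for claudins, -0.39 for tight junction partners, -0.10 for adherens junction genes and -0.37 for plaque genes. It was -1.29 for desmosomal cadherins, a value that rests on intact replicate 2. For Dsg3, Dsg4, Dsc1 and Dsc3, intact replicate 1 was below every castrated tumor, while for Dsg2 it was above them all. In bulk tissue, fewer cells of a type and less RNA per cell cannot be told apart. The count of 3 genes was 5 of 38 tested without castrated replicate 1 (16.5% of all genes tested in that fit). It was 1 of 39 without castrated replicate 2 (7.62%) and 0 of 38 without castrated replicate 3 (7.10%). With either intact tumor left out, the other gives no spread of its own, so no count is given. DESeq2 called 989 of all genes tested, among them Cldn11 (adjusted p = 0.00867) and Dsg4 (adjusted p = 0.0289). The likelihood ratio test of edgeR called 369, among them Cldn11 (adjusted p = 0.0425), while limma voom called 0. Cldn11 passed the filter on low counts only through castrated tumors and so had to be higher there. Over all alternatives, the adjusted p ran from 0.00867 to 0.710 for Cldn11, and 0.0289 was the lowest for Dsg4. Apart from the fits with a sample left out, the log2 fold change ran from 1.96 to 4.63 for Cldn11 and from -6.07 to -2.13 for Dsg4.

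**Figure D2:**
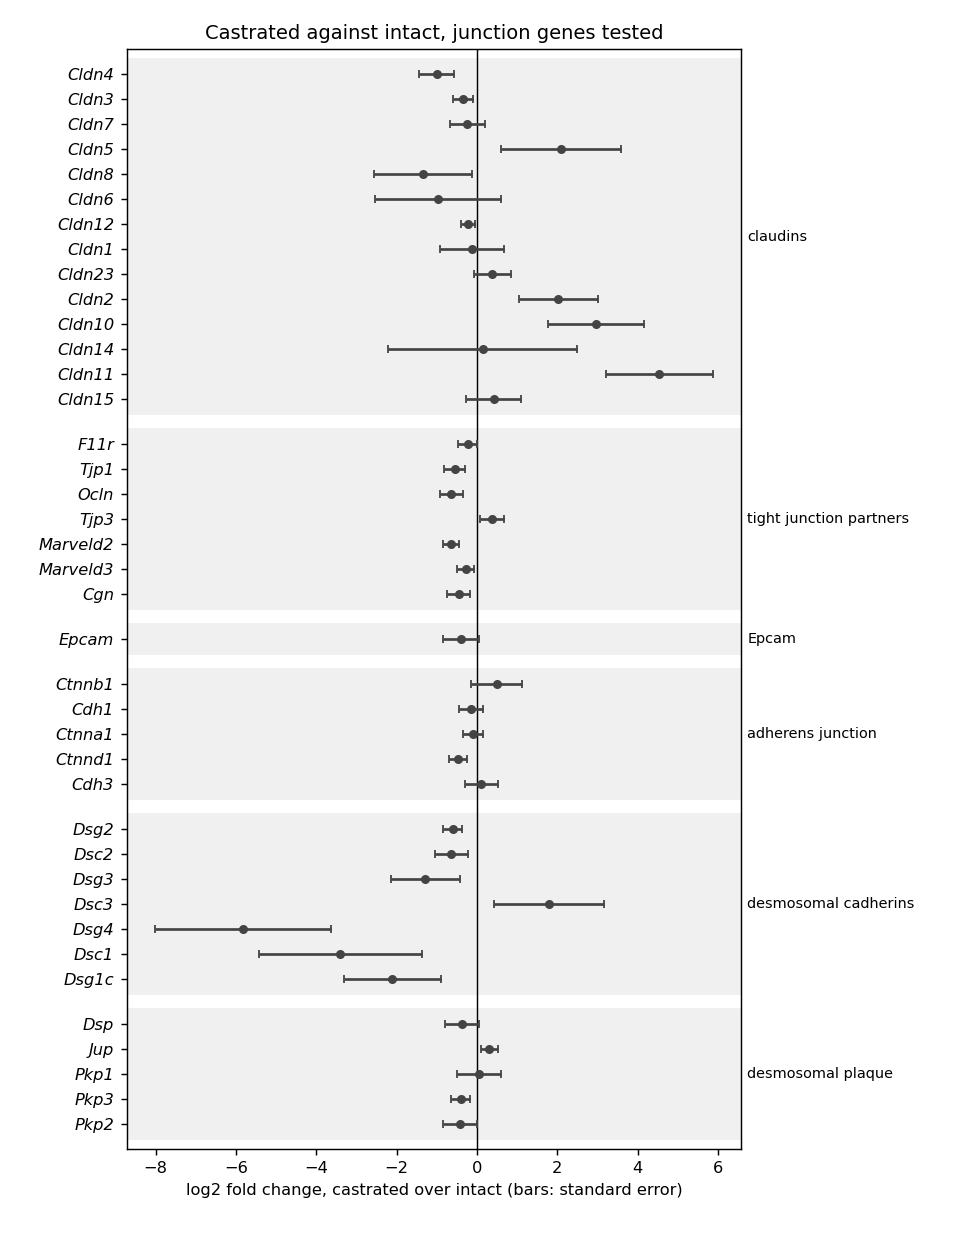
Log2 fold change of castrated over intact tumors for junction genes that were tested, from edgeR's quasi-likelihood fit, with bars of 1 standard error. Tight junction partners cluster just left of zero with short bars, whereas several claudins and desmosomal cadherins have long bars on either side.

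Among the tight junction partners, 7 of 8 had a lower mean in castrated tumors (52.1% of all genes tested), and none passed the threshold. In 5 of 8 every castrated tumor was below both intact tumors (16.1% of all genes tested), among them Marveld2, Ocln, Tjp1 and Marveld3, the last chosen after its values were seen. With libraries scaled to summed Krt8 and Krt18 counts in place of TMM, Marveld2 was the only one of this set still below both intact tumors in every castrated tumor (4.90% of all genes tested). The margin was then narrow, with 34.1 counts of Marveld2 per 1000 counts of Krt8 and Krt18 in castrated replicate 2 and 34.3 in intact replicate 1, and its log2 fold change was -0.54 (unadjusted p = 0.281, adjusted p = 0.847, edgeR quasi-likelihood F-test, Benjamini-Hochberg). Marveld2 encodes tricellulin, which seals the points where 3 cells meet. Its CPM was 51.3, 47.9 and 40.2 in castrated (replicates 1 to 3, the order used throughout) and 77.7 and 67.5 in intact tumors (replicates 1 and 2). These values, like all CPM here, are scaled by TMM, a trimmed mean of log ratios between libraries. The groups did not overlap, and the log2 fold change was -0.64 (standard error, SE, of 0.20, unadjusted p = 0.0213, adjusted p = 0.300, edgeR quasi-likelihood F-test, Benjamini-Hochberg), between -0.78 and -0.52 with each tumor left out. Ocln, the gene of occludin, had 57.7, 65.3 and 59.7 CPM in castrated and 68.2 and 122 CPM in intact tumors. The castrated tumors were close together and below both intact tumors, and intact replicate 2 alone was well above them. The log2 fold change of -0.64 (SE 0.28) was -0.21 without intact replicate 2 and -0.98 without intact replicate 1. Tjp1, which encodes the scaffold ZO-1, showed 253, 229 and 265 CPM in castrated and 283 and 449 CPM in intact tumors. Here too intact replicate 1 was just above the castrated tumors and intact replicate 2 far above (log2 fold change -0.55, SE 0.26, and -0.23 without intact replicate 2). F11r, encoding the junctional adhesion molecule JAM-A, was the most abundant tight junction partner by mean TPM (241), and its CPM of 305, 216 and 215 in castrated and 290 and 287 in intact tumors overlapped. Cingulin (Cgn) was at 42.3, 46.6 and 68.7 CPM in castrated and 60.7 and 83.4 CPM in intact tumors, also with overlap. Marveld3 had 43.686, 36.7 and 34.8 CPM in castrated and 49.7 and 43.692 CPM in intact tumors, so its groups separated by a very narrow margin. The only member of this set with a higher mean in castrated tumors was Tjp3, the gene of ZO-3 (chosen after its values were seen). It had 45.8, 63.8 and 78.9 CPM in castrated and 40.2 and 56.8 CPM in intact tumors, with overlap and a log2 fold change of 0.38 (SE 0.31).

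Ocln and Marveld2 lie next to each other on chromosome 13 of mm10, Ocln from 100496505 to 100552718 and Marveld2 from 100595957 to 100616971, both on the minus strand, 43.2 kb apart and with 0 other genes of the annotation in the gap. Because these neighbors were both lower in all castrated tumors with TMM scaling, the 250 bases upstream of each start are shown from RefSeq (GRCm38.p6), read 5′ to 3′ toward the gene, with the GC box GGGCGG or its reverse complement CCGCCC in capitals. The window of Ocln is chr13:100552719-100552968 and that of Marveld2 is chr13:100616972-100617221, minus strand.
Ocln: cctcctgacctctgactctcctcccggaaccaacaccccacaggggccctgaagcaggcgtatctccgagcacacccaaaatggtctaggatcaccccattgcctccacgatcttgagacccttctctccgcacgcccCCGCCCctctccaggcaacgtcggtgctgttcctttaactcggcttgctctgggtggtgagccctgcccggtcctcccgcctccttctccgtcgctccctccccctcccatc
Marveld2: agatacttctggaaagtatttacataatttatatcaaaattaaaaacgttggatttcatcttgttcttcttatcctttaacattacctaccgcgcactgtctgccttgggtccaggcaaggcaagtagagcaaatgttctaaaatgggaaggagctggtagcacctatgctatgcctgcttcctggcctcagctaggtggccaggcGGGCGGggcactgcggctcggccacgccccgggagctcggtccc
The GC box begins 112 bases before the start of Ocln and 44 bases before that of Marveld2, and the GC content of these windows is 64.0% and 50.4%. RefSeq windows were matched for 30 of the 51 genes, and a GC box on either strand was in 16 of these 30 (53.3%) and in 32.9% of the 27025 windows of all genes. The E-box CAGGTG or CACCTG, which Snail and Zeb repressors of epithelial genes recognize, was in 5 of 30 (16.7%, and 17.1% of all windows), and the TCF core CTTTGA or TCAAAG, part of the site for the DNA-binding partners of β-catenin, in 2 of 30 (6.67%, and 14.0% of all windows). No match shown overlapped another, and a match describes letters in the window and not a bound site.

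Claudins were dominated by Cldn4, Cldn3 and Cldn7, barrier-forming claudins of simple epithelium, whose combined share of claudin TPM was 59.8%, 75.6% and 67.1% in castrated and 83.0% and 66.8% in intact tumors. Of 23 claudins, 14 passed the filter, and 7 of these had a higher and 7 a lower mean in castrated tumors. Cldn4, on chromosome 5 from 134945124 to 134946934, reached 486, 297 and 286 CPM in castrated and 977 and 447 CPM in intact tumors. Intact replicate 1 was far above the rest, while intact replicate 2 fell between castrated replicates 1 and 2, so the groups overlapped. The log2 fold change was -0.999 (SE 0.44, adjusted p = 0.358, edgeR quasi-likelihood F-test, Benjamini-Hochberg), and -0.31 without intact replicate 1. Within the summed claudin TPM, Cldn4 made up 39.8%, 42.3% and 38.0% in castrated and 59.8% and 46.3% in intact tumors, which do not overlap, though these shares have no test of their own. Cldn3, which lies 39.3 kb from Cldn4, was at 105, 83.2 and 85.8 CPM in castrated and 142 and 93.0 CPM in intact tumors, with castrated replicate 1 above intact replicate 2 (log2 fold change -0.36, SE 0.25, and -0.00330 without intact replicate 1). Cldn7 had 74.9, 91.4 and 77.3 CPM in castrated tumors, between the 141 CPM of intact replicate 1 and the 51.1 CPM of intact replicate 2, and its log2 fold change of -0.24 turned to 0.69 without intact replicate 1 and to -0.84 without intact replicate 2.

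Several less abundant claudins differed widely within groups. Cldn11, known from the tight junctions of myelin and of Sertoli cells, was at 0.489, 4.40 and 6.67 CPM in castrated and 0.179 and 0.139 CPM in intact tumors, from 14, 82 and 137 counts against 4 and 3 counts. All castrated tumors were above both intact tumors, but castrated replicate 1 was closer to the intact tumors than to the other castrated tumors. The log2 fold change was 4.54 (SE 1.34, unadjusted p = 0.0172, adjusted p = 0.296, edgeR quasi-likelihood F-test, Benjamini-Hochberg), and without castrated replicate 2 or 3 the gene no longer passed the filter. Markers of Schwann cells and nerve, which also use myelin genes, had a summed CPM of 145, 343 and 282 in castrated and 163 and 132 in intact tumors (8 of 8 in the table, 7 tested, 1 higher at an unadjusted p under 0.05, none at 0 in all samples, the most abundant by TPM Pmp22). Markers of fat were also highest in castrated replicates 2 and 3, at 172, 2657 and 1966 CPM in castrated and 48.0 and 253 CPM in intact tumors (11 of 11 tested, 8 higher at an unadjusted p under 0.05, the most abundant by TPM Lpl, none at 0 in all samples), and several of them, such as Adipoq and Plin1, also passed the filter only through castrated tumors. The part of either cell type in the level of Cldn11 was not tested. Cldn2, a pore-forming claudin, was at 9.32, 5.09 and 40.9 CPM in castrated and 3.99 and 5.07 CPM in intact tumors. The groups touched without overlapping, castrated replicate 3 stood far above the rest, and the log2 fold change of 2.02 (SE 0.98) was 0.68 without it. Cldn5, the claudin of endothelial tight junctions, ranged widely, at 255, 18.7 and 37.3 CPM in castrated and 44.7 and 4.28 CPM in intact tumors. Its log2 fold change of 2.08 (SE 1.49) was 0.19 without castrated replicate 1 and 4.62 without intact replicate 1. The 10 endothelial markers summed to 629, 347 and 473 CPM in castrated and 545 and 188 CPM in intact tumors (all 10 tested, 3 higher at an unadjusted p under 0.05, the most abundant by TPM Ecscr, none at 0 in all samples). On the TPM scale, the ratio of Cldn5 to the endothelial gene Pecam1 was 5.54, 0.644 and 0.877 in castrated and 1.59 and 0.221 in intact tumors. This ratio was highest in castrated replicate 1, and the part of endothelial cells in the level of Cldn5 was not tested. Cldn1, a claudin of basal and squamous cells, was at 11.6, 19.5 and 57.8 CPM in castrated and 16.6 and 48.0 CPM in intact tumors, and its log2 fold change of -0.12 ran from -1.05 without castrated replicate 3 to 0.79 without intact replicate 2.

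Several further claudins, chosen after their values were seen, separated the intact tumors from each other. Cldn8, an ion barrier of distal kidney tubules and other ducts, had 7.98 CPM in intact replicate 1 and 311 CPM in intact replicate 2, on either side of the castrated tumors at 74.6, 44.9 and 69.9 CPM. Cldn6, which is best known from embryonic epithelium, had the opposite order, with 138 CPM in intact replicate 1, 0.790 CPM in intact replicate 2 and 49.0, 39.7 and 16.8 CPM in castrated tumors. For both, the castrated tumors lay between the intact ones, and Cldn8 accordingly took 0.375% of claudin TPM in intact replicate 1 and 24.8% in intact replicate 2. Cldn14 was detected at more than 1 CPM in castrated replicate 3 (8.92 CPM) and intact replicate 2 (5.44 CPM), and at 0 to 2 counts elsewhere. Cldn12, in contrast, was even, at 42.5, 44.0 and 40.0 CPM in castrated and 51.2 and 47.0 CPM in intact tumors, without overlap and with a log2 fold change of -0.22 (SE 0.18). Castrated tumors differed at least 4-fold among themselves for 8 junction genes (8.81% of all genes tested), 6 of them claudins. The 9 claudins that did not pass the filter were Cldn13, Cldn16, Cldn18 and Cldn24, at 0 counts in every sample (3 counts, the limit that a count of 0 allows, correspond to 0.105 to 0.161 CPM in these libraries), and Cldn9, Cldn17, Cldn19, Cldn20 and Cldn22, at no more than 7 counts in any sample.

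The windows of Cldn11, the claudin with the largest log2 fold change, and Cldn4, the most abundant claudin by TPM, are shown in the same way. They are chr3:31149670-31149919 (plus strand) for Cldn11 and chr5:134946935-134947184 (minus strand) for Cldn4, from RefSeq GRCm38.p6, with GC box and E-box matches in capitals.
Cldn11: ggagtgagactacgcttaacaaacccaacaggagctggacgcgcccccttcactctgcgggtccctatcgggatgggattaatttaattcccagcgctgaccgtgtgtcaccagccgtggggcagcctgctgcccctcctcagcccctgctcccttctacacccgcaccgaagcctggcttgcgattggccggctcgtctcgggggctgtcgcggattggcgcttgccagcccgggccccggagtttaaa
Cldn4: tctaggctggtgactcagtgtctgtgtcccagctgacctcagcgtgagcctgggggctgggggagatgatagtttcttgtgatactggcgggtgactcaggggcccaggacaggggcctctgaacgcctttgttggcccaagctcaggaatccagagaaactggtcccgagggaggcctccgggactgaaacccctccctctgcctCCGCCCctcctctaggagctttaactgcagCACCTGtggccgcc
In Cldn4 the GC box begins 44 bases and the E-box 14 bases before the start, whereas the letters of the 3 motifs are not in the Cldn11 window.

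**Figure D3:**
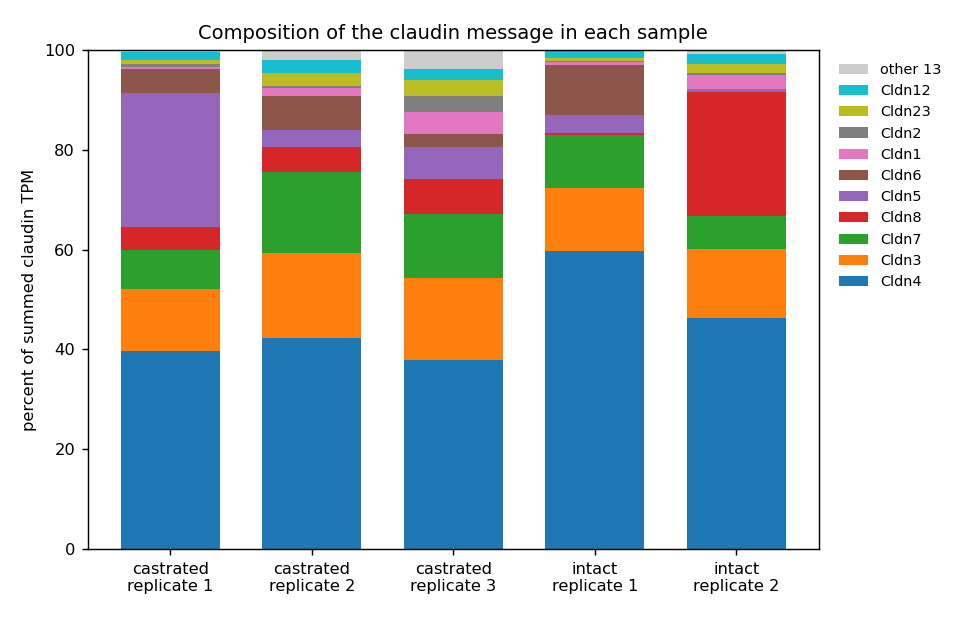
Share of each claudin in the summed claudin TPM of each tumor, in percent, for the 10 most abundant claudins and the other 13 together. Cldn4 holds 59.8% in intact replicate 1 and 46.3% in intact replicate 2 against 38.0% to 42.3% in castrated tumors, Cldn5 holds 26.7% in castrated replicate 1 and Cldn8 holds 24.8% in intact replicate 2.

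The adherens junction genes were abundant in both groups, and the groups overlapped for 4 of 5, the other being lower in castrated tumors (16.1% of all genes tested). E-cadherin (Cdh1), the cadherin of most epithelia, was at 596, 732 and 809 CPM in castrated and 889 and 690 CPM in intact tumors. The groups overlapped, the log2 fold change was -0.15 (SE 0.29), and without intact replicate 1 it was 0.07. P-cadherin (Cdh3), typical of basal cells, was at 22.9, 25.7 and 41.6 CPM in castrated and 19.4 and 36.5 CPM in intact tumors, with a log2 fold change of 0.10 (SE 0.41) that ranged from -0.26 to 0.59 with each tumor left out. Of the TPM of these classical cadherins, Cdh1 made up 94.7% to 96.3% in castrated and 94.5% and 97.7% in intact tumors. Ctnnb1, the gene of β-catenin and the gene altered in these mice, was the most abundant junction gene by mean TPM (1032). It was at 2902, 1334 and 1189 CPM in castrated and 1812 and 765 CPM in intact tumors, counted over both alleles. Castrated replicate 1 was highest and intact replicate 2 lowest, with the other 3 tumors between them, and the log2 fold change of 0.49 (SE 0.63) was 1.26 without intact replicate 1 and -0.04 without intact replicate 2. The ratio of Ctnnb1 to Cdh1 on the TPM scale was 5.96, 2.23 and 1.80 in castrated and 2.49 and 1.36 in intact tumors. Ctnnb1 shares 14.6% of its exon bases with Ulk4 on the opposite strand, and whether strand entered the counting is not stated in the methods. Ctnna1, which encodes αE-catenin, was even across tumors, at 516, 447 and 501 CPM in castrated and 607 and 440 CPM in intact tumors (log2 fold change -0.10, SE 0.25, and 0.17 without intact replicate 1). Ctnnd1, the gene of p120 catenin that keeps cadherins at the membrane, was at 75.9, 63.6 and 60.6 CPM in castrated and 77.8 and 108 CPM in intact tumors. It was the only adherens junction gene whose groups did not overlap, by a narrow margin between castrated replicate 1 and intact replicate 1, and its log2 fold change of -0.48 (SE 0.23) was -0.26 without intact replicate 2. Ctnnd1 shares 61.2% of its exon bases with Gm28635, an annotated gene on the same strand without a row in the count table.

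Epcam, a cell adhesion protein of simple epithelium that binds claudins, was second in mean TPM (892). Its CPM was 736, 729 and 637 in castrated, 1325 in intact replicate 1 and 511 in intact replicate 2. The castrated tumors lay close together between the intact ones, and the log2 fold change of -0.39 (SE 0.45) was -0.96 without intact replicate 2 and 0.48 without intact replicate 1.

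Most desmosomal cadherins were highest in intact replicate 2. Their 9 genes form a cluster on chromosome 18 of mm10 from 19960930 to 20604526, and 7 of them passed the filter, of which 6 had a lower mean in castrated tumors. Dsg4, a desmoglein of hair and cornified epithelium, was at 1.05, 0.161 and 0.146 CPM in castrated tumors, 0.0448 CPM in intact replicate 1 and 54.5 CPM in intact replicate 2, from 30, 3, 3, 1 and 1173 counts. Intact replicate 1 was the lowest of the 5 tumors and intact replicate 2 the highest, so the groups overlapped. The log2 fold change was -5.83 (SE 2.19, unadjusted p = 0.0428, adjusted p = 0.323, edgeR quasi-likelihood F-test, Benjamini-Hochberg). It rests on intact replicate 2. The gene passed the filter only through that tumor and castrated replicate 1, and does not pass without either of them. Dsc1, the desmocollin of the same layers and chosen after its values were seen, was likewise lowest in intact replicate 1 and highest in intact replicate 2, with 3.98, 0.483 and 0.974 CPM in castrated tumors, 0 in intact replicate 1 and 39.0 CPM in intact replicate 2. Dsg3, a desmoglein of basal layers also chosen this way, was at 19.4, 9.28 and 17.1 CPM in castrated and 7.84 and 66.9 CPM in intact tumors. Dsg1a, Dsg1b and Dsg1c are near-identical copies whose reads may be split uncertainly and were chosen in the same way. Their highest counts, 312, 139 and 230, were all in intact replicate 2, with at most 3, 3 and 48 counts in any other tumor. Dsc3, the desmocollin of basal cells and likewise chosen, went another way, with 10.7, 22.4 and 31.0 CPM in castrated tumors, 0.269 CPM in intact replicate 1 and 12 CPM in intact replicate 2.

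Dsg2 and Dsc2, the desmosomal cadherins of simple epithelium, were the main forms by TPM. Dsg2 was at 222, 164 and 171 CPM in castrated and 323 and 243 CPM in intact tumors. All castrated tumors were below both intact tumors, with a log2 fold change of -0.61 (SE 0.24, unadjusted p = 0.0506, adjusted p = 0.334, edgeR quasi-likelihood F-test, Benjamini-Hochberg) that was -0.37 without intact replicate 1. Dsc2 was at 102, 58.0 and 99.97 CPM in castrated and 86.6 and 183 CPM in intact tumors, with overlap, and its log2 fold change of -0.64 (SE 0.41) was -0.04 without intact replicate 2. Of the summed desmoglein TPM, Dsg2 made up 87.6%, 92.2% and 86.5% in castrated tumors and 96.5% in intact replicate 1, but 52.4% in intact replicate 2, where Dsg3 and Dsg4 held 20.2% and 19.6%. Of the desmocollin TPM, Dsc2 made up 88.6%, 74.4% and 78.2% in castrated and 99.7% and 79.7% in intact tumors. Intact replicate 2 thus combined the secretory genes given above with desmosomal cadherins of stratified epithelium. Markers of squamous epithelium summed to 158, 123 and 194 CPM in castrated and 79.7 and 227 CPM in intact tumors (12 of 12 in the table, 8 tested, 1 higher and 1 lower at an unadjusted p under 0.05, none at 0 in all samples). Krt4, the most abundant of them by TPM, had 73.5, 93.6 and 147 CPM in castrated and 28.8 and 23.5 CPM in intact tumors, and the cornification keratin Krt1 had 1.29, 0.322 and 0.585 CPM in castrated and 0.134 and 14.3 CPM in intact tumors. Basal markers summed to 861, 866 and 1557 CPM in castrated and 892 and 1170 CPM in intact tumors (8 of 8 tested, 1 higher at an unadjusted p under 0.05, namely Krt15, which was also the most abundant by TPM, none at 0 in all samples). Krt5 was at 128, 90.5 and 290 CPM in castrated and 28.9 and 405 CPM in intact tumors, while Itgb4 had the opposite order in intact tumors (454 and 143 CPM), as did Dst (324 and 186 CPM). The part of these cell types in the desmosomal cadherin levels was not tested.

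**Figure D4:**
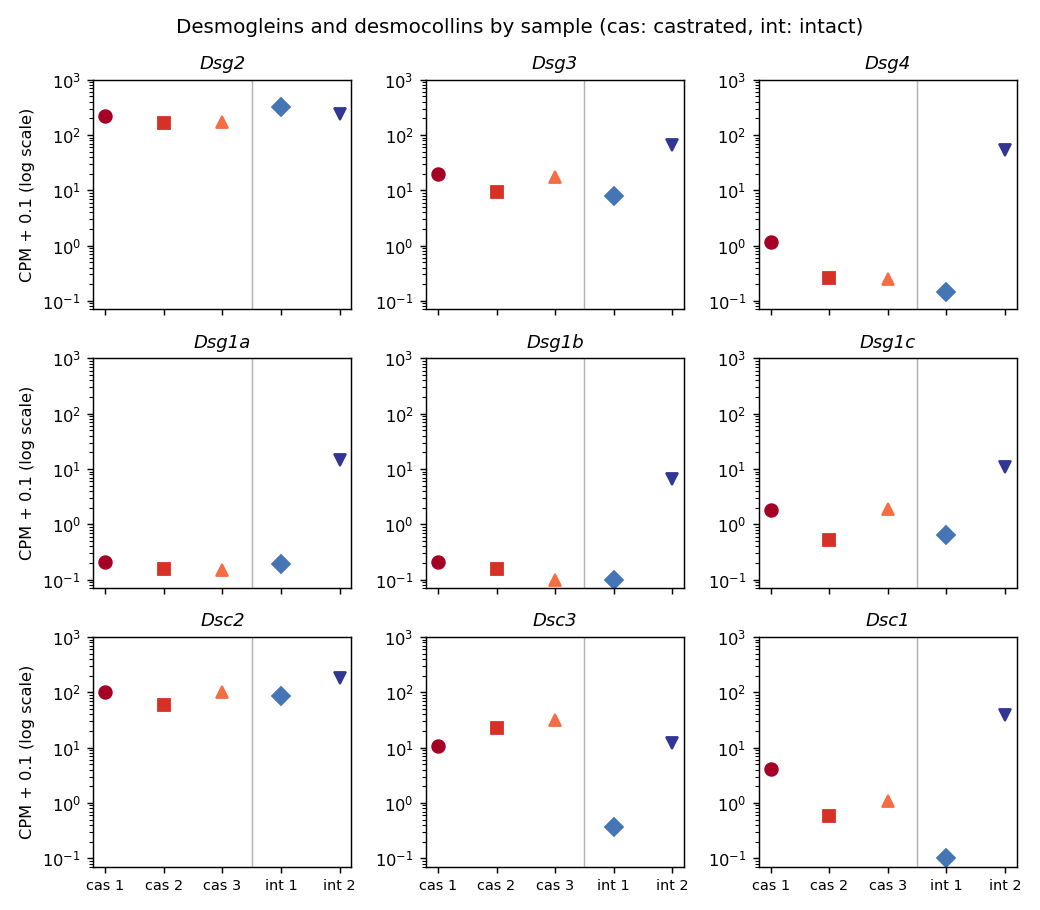
CPM plus 0.1, on a log scale, of the 6 desmogleins and 3 desmocollins in each tumor, castrated on the left and intact on the right of the grey line. Dsg2 and Dsc2 are near 100 CPM or above in most tumors, and Dsg4, Dsg1a, Dsg1b and Dsc1 exceed 5 CPM in intact replicate 2 alone.

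The 5 desmosomal plaque genes had log2 fold changes between -0.43 and 0.31, and none passed the threshold. Desmoplakin (Dsp), the link to keratin, was at 571, 391 and 486 CPM in castrated and 383 and 867 CPM in intact tumors, with the castrated tumors between the intact ones, and its log2 fold change of -0.37 (SE 0.41) was 0.29 without intact replicate 2. Plakoglobin (Jup), which serves both desmosomes and adherens junctions, was at 304, 227 and 246 CPM in castrated and 214 and 204 CPM in intact tumors. Of the 5 plaque genes it alone was above both intact tumors in every castrated tumor (17.0% of all genes tested), with a log2 fold change of 0.31 (SE 0.21, adjusted p = 0.529, edgeR quasi-likelihood F-test, Benjamini-Hochberg) that was 0.18 without castrated replicate 1. Pkp3, the plakophilin of simple and stratified epithelium, was the only plaque gene lower in every castrated tumor (16.1% of all genes tested), at 38.9, 33.0 and 36.3 CPM against 40.2 and 55.7 CPM in intact tumors, with a log2 fold change of -0.41 (SE 0.23) that was -0.20 without intact replicate 2. Pkp1, which is rich in stratified epithelium, had 46.6, 48.9 and 111 CPM in castrated and 39.7 and 94.2 CPM in intact tumors, and Pkp2, found in simple epithelium and heart, had 23.7, 32.7 and 34.0 CPM in castrated and 23.4 and 57.5 CPM in intact tumors. Both overlapped between groups, and their log2 fold changes of 0.04 (SE 0.55) and -0.43 (SE 0.42) were 0.75 and 0.32 without intact replicate 2.

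Further genes of these structures had differences in both directions, and none passed the threshold. A list of 55 further genes held polarity, nectin, angulin and cytoplasmic junction genes, other cadherins such as Cdh2, Cdh5 and Cdh11, and adhesion molecules such as Jam2 and Esam. Of these 55, 47 were in the table and 45 passed the filter, while Cdh16 was at 0 in every sample. Of the 45, 15 had a higher and 30 a lower mean in castrated tumors (median log2 fold change -0.19). Castrated tumors were above both intact tumors for 6 of the 45 (17.0% of all genes tested) and below both for 2 (16.1% of all genes tested). In each direction 1 gene had an unadjusted p under 0.05, against 8.74% of all genes tested higher and 6.28% lower. These shares of the 45 were below those of all genes tested. Ctnna2, which encodes the neural αN-catenin, was at 3.25, 1.88 and 4 CPM in castrated and 0.583 and 0.279 CPM in intact tumors. Every castrated tumor was above both intact tumors (log2 fold change 2.80, SE 0.66, adjusted p = 0.289, edgeR quasi-likelihood F-test, Benjamini-Hochberg). The log2 fold change was 3.44 without intact replicate 1 and 2.33 without intact replicate 2. Neuroendocrine markers were also higher in castrated tumors, with a summed CPM of 20.8, 30.1 and 35.5 against 1.97 and 2.32 (7 of 7 in the table, 6 tested, 5 higher at an unadjusted p under 0.05, the most abundant by TPM Chgb, none at 0 in all samples). Ctnna2 and all 6 of the neuroendocrine markers tested were under 1 CPM in both intact tumors. They passed the filter only through castrated tumors and so had to be higher there. The part of neuroendocrine cells in the level of Ctnna2 was not tested. Ybx3, the ZO-1-associated nucleic acid binding protein ZONAB, was at 177, 189 and 188 CPM in castrated and 245 and 319 CPM in intact tumors, again without overlap but in the other direction (log2 fold change -0.61, SE 0.20, adjusted p = 0.302, edgeR quasi-likelihood F-test, Benjamini-Hochberg).

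Of 17 transcription and splicing factors known to control epithelial identity, 8 had a higher and 9 a lower mean in castrated tumors (median log2 fold change -0.05). An unadjusted p under 0.05 was found for 4 (15% of all genes tested), 2 higher and 2 lower in castrated tumors. The groups overlapped in none of the 4. Only Esrp2 of them kept an unadjusted p under 0.05 whichever castrated tumor was left out. Esrp2, a splicing factor of epithelial transcripts, was at 58.4, 49.1 and 47.6 CPM in castrated and 96.8 and 88.7 CPM in intact tumors. The castrated tumors were well below both intact tumors (log2 fold change -0.84, SE 0.19, unadjusted p = 0.00529, adjusted p = 0.289, edgeR quasi-likelihood F-test, Benjamini-Hochberg). Ovol1, a repressor of mesenchymal genes, was at 4.43, 6.11 and 3.95 CPM in castrated and 6.77 and 21.9 CPM in intact tumors (log2 fold change -1.57, SE 0.56, and -0.53 without intact replicate 2). Zeb1, a repressor of E-cadherin, was at 49.0, 44.0 and 68.1 CPM in castrated and 35.1 and 32.6 CPM in intact tumors (log2 fold change 0.67, SE 0.26), and Twist2, a factor of mesenchymal cells, at 4.43, 5.58 and 10.1 CPM against 3 and 1.53 CPM (log2 fold change 1.56, SE 0.58). For the related Esrp1, Ovol2, Zeb2 and Twist1, chosen after their values were seen, the groups overlapped. Their log2 fold changes were 0.14, 0.31, 0.14 and -1.27. Zeb1 and Twist2 are also expressed by stroma, whose markers differed in how they moved. Fibroblast markers summed to 4806, 5840 and 7797 CPM in castrated and 4367 and 2621 CPM in intact tumors (8 of 8 tested, 4 higher at an unadjusted p under 0.05, the most abundant by TPM Dcn), while the groups overlapped for Col1a1, Col1a2, Col3a1 and Mfap5, with log2 fold changes between -0.36 and 0.09. Smooth muscle markers summed to 397, 737 and 686 against 206 and 147 CPM (8 of 8 tested, 8 higher at an unadjusted p under 0.05, the most abundant by TPM Tagln). Macrophage markers summed to 2647, 7372 and 3008 against 1110 and 1679 CPM (10 of 10 tested, all with a higher mean, 9 higher at an unadjusted p under 0.05, the most abundant by TPM Lyz2). Of all genes tested, 8.74% were higher at an unadjusted p under 0.05. T cell markers summed to 19.96, 57.0 and 58.5 CPM in castrated and 13.1 and 40.3 CPM in intact tumors, with overlap (7 of 8 in the table, 7 tested, 0 at an unadjusted p under 0.05). None of these genes was at 0 in all samples. Of the luminal markers, 0 of 9 had an unadjusted p under 0.05 in that test, 7 of 9 had a lower mean in castrated tumors, and the median log2 fold change was -0.25, beside -0.30 for junction genes. The part of the stroma and of the luminal cells in the levels of junction genes and of these factors was not tested. With libraries scaled to summed Krt8 and Krt18 counts, the junction genes lower in every castrated tumor numbered 4 in place of 9 (Cldn3, Cldn4, Dsg2 and Marveld2), and the share of all genes tested was 4.90% in place of 16.1%.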

How the data were processed

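Bulk RNA-seq of prostate tissue of TripleTg mice, 3 castrated and 2 intact, was analyzed, grouped by the condition in the sample labels, with no sample left out. The authors made ribosomal RNA-depleted paired-end libraries, and the submitters' processing notes name Trimmomatic 0.39, STAR 2.7.9, HTSeq 2.0.2 and mm10. The deposited values are raw counts per gene, without normalization, beside a gene length in kilobases that served here for TPM.

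The 51 genes, the lists and the tests were chosen with earlier results of these data known. Counts were analyzed with R 4.3.3 and edgeR 4.0.16. The 14612 genes with more than 1 CPM in 2 or more samples were fitted by edgeR's quasi-likelihood method with TMM factors of 0.944 to 1.036, and p-values were adjusted by Benjamini-Hochberg over all of them. A call required an adjusted p under 0.05 and a log2 fold change beyond 1 in either direction, the thresholds in the methods of the study. Those methods name edgeR's default settings, whereas the main fit here was the newer quasi-likelihood fit, so the study's procedure was not repeated exactly. Counts were used although those methods name TPM, which is an alternative. The standard error (SE) of a log2 fold change is its size over the root of its F statistic. The CPM values are scaled by TMM, and correlations used log2 CPM (prior count 2). The p-values measure the spread between mice. The common dispersion was 0.238 (squared coefficient of variation between mice beyond counting error). Samples of a group were different libraries (chi-square per gene of 140 to 347 between them).

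Genes described individually were members with an unadjusted p under 0.05, the 10 with the largest fold change among those whose groups did not overlap, a list of main components of each junction, the most abundant desmoglein and desmocollin, and further junction genes and epithelial regulators with an unadjusted p under 0.05. Other junction genes given with values are marked, except claudins with few or no counts, and marker genes come from the lists. An item that is not reported here stays in the counts and medians but is left out of the text and the plots. Promoter windows are RefSeq sequences. The procedure was tested on simulated counts. Alternatives were DESeq2 1.42.0, the likelihood ratio test, limma 3.58.1 on voom values and on TPM, other scalings and filters, the replicate number as a block, and leaving out samples. The older quasi-likelihood fit of edgeR, the alternatives for genes whose groups do not overlap and the left-out samples for regulators were chosen after seeing the data.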

Additional observations from a re-analysis of the deposited data

How the results depend on the processing

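With 19 alternatives, the log2 fold change kept its direction in every fit that gave a value for 16 of the 27 junction genes described by the rule. It reversed for 6 only when a sample was left out, and for 5 under other settings. With each sample left out, it ran from -0.36 to 0.0662 for Cdh1, -0.26 to 0.59 for Cdh3, -1.05 to 0.79 for Cldn1, -0.84 to 0.69 for Cldn7, -0.36 to 0.17 for Ctnna1, -0.0445 to 1.26 for Ctnnb1, -0.83 to 0.29 for Dsp, -0.96 to 0.48 for Epcam, -0.48 to 0.75 for Pkp1 and -0.91 to 0.32 for Pkp2. Scaling to summed Krt8 and Krt18 gave 0.00921 for Ctnna1 and -0.0924 for Pkp1, and TPM gave 0.0472 for Ctnna1 and 0.0587 for Cldn7. With castrated replicate 1 as the only castrated sample, Cdh3 was at -0.29, F11r at 0.0738 and Pkp1 at -0.52.

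The count of 0 genes called was 989 with DESeq2, 369 with the likelihood ratio test and 60 with scaling to Krt8 and Krt18. Of junction genes, DESeq2 called 2 and the likelihood ratio test 1. The 3 junction genes with an unadjusted p under 0.05 numbered 8 with DESeq2 (20.7% of all genes tested in that fit), 7 with scaling to Krt8 and Krt18 (12.8%), 6 of 47 without a filter (13.6%), 1 of 35 with a CPM filter of 5 (14.4%), 1 with limma voom (11.3%), 1 with TPM (12.6%), 0 of 37 with castrated replicate 1 alone (1.86%) and 0 to 14 with each sample left out. The median log2 fold change of all junction genes tested, -0.30, was -0.11 on TPM, where the median of all genes was 0.12. The 9 junction genes lower in every castrated sample numbered 4 with scaling to Krt8 and Krt18 and 9 to 18 with each sample left out. In these settings the share of all genes was 4.90% with that scaling, 36.7% without intact replicate 1 and 31.4% without intact replicate 2. The causes were not tested.

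Same-numbered samples are different mice, and their deviations from the group means correlated at 0.15 for replicate 1 and -0.05 for replicate 2, so they share only a number. With the replicate number as a block, 1 junction gene (Cldn5) had an unadjusted p under 0.05 (7.16% of all genes tested), 0 genes were called, and Cdh3 was at -0.13 and Pkp1 at -0.36. Spread within both groups and the number of mice limit these comparisons, and at this depth levels under 0.105 to 0.161 CPM (3 counts) could not be told from 0.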
